A study of Mus musculus with 12 samples.

Results

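The 7 genes described here, Cd34, Lgr5, Gfra2, Ctgf, Pcolce2, Scrg1 and Serpinb11, are surface and secreted markers of the hair follicle bulge, the niche in which mouse hair follicle stem cells (HFSCs) reside. They were chosen by gene name from 34763 names on a mouse expression array. Ctgf, as the array spells it, is Ccn2 in RefSeq. Each gene was read from its brightest probe on average over 12 arrays. Cd34 and Lgr5 had 2 probes each and the other 5 genes 1 probe each.

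Each of the 12 groups was 1 array. HFSCs came from aged (at least 22 months) and young (8 weeks) wild-type C57BL/6 mice, and from 12-week-old Col17a1 cKO and wild-type control mice, and were collected either 3 days after depilation by hand (plucked) or without it (unplucked). The remaining arrays held total epidermis and interfollicular epidermis (IFE) of unplucked aged and young mice. Per the labels, the K14 promoter, active in basal keratinocytes throughout the epidermis and follicle, drove the deletion in cKO mice. The labels name no strain for cKO mice, and give the control genotype as wild type, without stating whether controls carried a Cre or floxed allele. Both cKO and control mice had received tamoxifen, 2 mg on 5 days, and the aged and young mice are not labelled as having received any. The HFSC gate took cells with high CD34, high ITGA6 and no SCA1, and the IFE gate cells with high ITGA6 and high SCA1. Cd34 was thus used to sort the cells, and its difference between populations is not a finding. The labels do not say how many animals a sample held, so p-values reflect only how far these samples vary, and part of that may be technical.

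Bulge stem cells rest for most of the hair cycle, and plucking the hair shaft brings resting follicles into growth. CD34 is a sialomucin of the cell surface and the usual marker for sorting mouse bulge cells. LGR5 is the receptor for R-spondins that heightens Wnt signalling and marks cells of the lower bulge and hair germ. GFRA2 is the anchored co-receptor that binds neurturin and signals through RET. CTGF is a matricellular protein of the CCN family and a common target gene of YAP. PCOLCE2 enhances the cleavage of the procollagen C-propeptide by BMP1-like proteinases, and SCRG1 is a small secreted protein for which BST1 has been described as a receptor. SERPINB11 belongs to the clade B serpins, most of which act inside cells, so that its place among surface and secreted markers is one of label.

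RefSeq promoters (GRCm38.p6) were at hand for 3 of the 7 genes, and for that reason the 250 bases before the start are given for these 3. Their transcripts were lower in plucked than in unplucked HFSCs in all 4 pairs, as were those of Gfra2 and Ctgf, whose promoters were not at hand. Capitals mark 4 short motifs searched on both strands, CTTTGT (TCF/LEF), CATTCC (TEAD), TGTGGT (RUNX) and ACAATG (SOX). The Cd34 window lies at chr1:194938571-194938820, that of Pcolce2 at chr9:95637378-95637627 and that of Serpinb11 at chr1:107362064-107362313, all on the plus strand.
Cd34: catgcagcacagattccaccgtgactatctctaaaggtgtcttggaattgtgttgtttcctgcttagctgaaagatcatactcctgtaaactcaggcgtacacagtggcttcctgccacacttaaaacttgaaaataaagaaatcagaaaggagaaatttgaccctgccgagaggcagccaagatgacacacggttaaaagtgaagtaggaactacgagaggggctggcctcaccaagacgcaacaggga
Pcolce2: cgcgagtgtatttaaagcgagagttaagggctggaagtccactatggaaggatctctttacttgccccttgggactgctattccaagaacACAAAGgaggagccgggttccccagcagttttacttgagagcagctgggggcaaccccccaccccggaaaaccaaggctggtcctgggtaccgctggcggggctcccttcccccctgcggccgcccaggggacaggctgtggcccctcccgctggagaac
Serpinb11: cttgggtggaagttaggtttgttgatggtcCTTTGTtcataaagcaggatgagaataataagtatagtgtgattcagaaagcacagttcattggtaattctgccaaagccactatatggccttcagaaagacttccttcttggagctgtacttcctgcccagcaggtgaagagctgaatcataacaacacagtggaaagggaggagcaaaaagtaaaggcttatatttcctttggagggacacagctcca
The Pcolce2 and Serpinb11 windows each held 1 TCF/LEF match, and the Cd34 window held none of the 4 motifs. Among 32851 RefSeq promoters, 16.5% held the TCF/LEF letters in the same window, 12.6% the TEAD and 14% the RUNX letters, and 3512 promoters held the SOX letters. A match describes the letters only.

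For the other 4 genes the sequence at hand is that of the probe, and the first 30 of its 60 bases are given because the values reported for these genes are read from this stretch of transcript, apart from those given for the second Lgr5 probe. Coordinates are those of the whole probe in the array files, on mm9.
Lgr5: catgtaaatacgtagtgcttgtaaatagat
Gfra2: tgcattcactcttaaccaagctccaataaa
Ctgf: gtcaaatccctgttggtgaacaaatggcct
Scrg1: caaactctgtcagttcagcgccatttctga
The Lgr5 probe lies at chr10:114887403-114887462 on the minus strand and the Gfra2 probe at chr14:71379586-71379645 on the plus strand. The Ctgf probe lies at chr10:24318281-24318340 and the Scrg1 probe at chr8:59956257-59956316, both on the plus strand. The array files place them at bases 4618, 3402, 2194 and 574 of the Lgr5, Gfra2, Ctgf and Scrg1 transcripts. Which exon or untranslated region these positions fall in was not looked up, as no mm9 annotation was at hand.

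Levels are given as log2 of the processed spot intensity minus the array's 75th percentile, so that 0 is the 75th percentile of an array. They compare arrays for 1 gene and not genes with each other. Between 49.71% and 64.97% of spots were well above background by the scanner software's flag, and the unplucked control and cKO HFSC arrays had the lowest median correlation with the other arrays (0.888 and 0.893, against 0.907 to 0.93 on the others). Age coincided with the row of the slide on slide 1, population and plucking with its column, and control against young cells with the slide, so these cannot be told apart. On slide 2, cKO and control cells lay in different columns, as did plucked and unplucked cells, which cannot be told apart from column either. Col17a1, the deleted gene, was at 5.79 in plucked cKO and 6.22 in plucked control HFSCs, and at 7.01 in unplucked cKO and 7.31 in unplucked control HFSCs. Where its probe lies relative to the deleted exons is not stated in the labels or files used here, and these levels do not check the deletion. The sort marker Ly6a, which encodes SCA1, was at -3.69 to 0.3 in the 8 HFSC arrays, against 3.33 and 3.91 in total epidermis and 3.69 and 4.37 in IFE. Krt15, a keratin often used for the bulge, did not set HFSCs apart here (5.79 to 6.97 in HFSCs, 6.02 to 6.14 in aged and 6.06 to 6.36 in young epidermal populations).

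All 7 genes were higher in unplucked HFSCs of aged and young mice than in total epidermis and IFE. Cd34 stood at 5.62 in aged and 6.46 in young HFSCs, at 0.76 and 0.56 in aged and young total epidermis, and at -3.05 in young IFE, while it was not well above background in aged IFE (-5.98). Lgr5 stood at 4.60 in aged and 4.09 in young HFSCs and at -0.69 and -1.74 in aged and young total epidermis, and was not well above background in either IFE array (-5.91 aged, -5.30 young). For Cd34 and Lgr5, as for Ctgf and Serpinb11 below, total epidermis, which includes follicle cells, lay between HFSCs and IFE.

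Gfra2 stood at 3.51 in aged and 1.91 in young HFSCs and was not well above background in total epidermis (-3.74 aged, -4.13 young) or IFE (-4.40 aged, -4.30 young). Ctgf stood at 6.99 in aged and 6.84 in young HFSCs, at 1.25 and 0.17 in aged and young total epidermis and at -0.43 and -0.97 in aged and young IFE. Of the 7 genes it was the only one well above background on all 12 arrays, so that its difference between populations is a measured one throughout.

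Pcolce2 stood at 0.56 in aged and 2.36 in young HFSCs, and of the 4 epidermal arrays only aged IFE held it well above background (-2.59), with young IFE at -5.37 and total epidermis at -5.43 (aged) and -5.66 (young). Scrg1 stood at 0.69 in aged and 1.27 in young HFSCs and was not well above background in total epidermis (-5.51 aged, -6.30 young) or IFE (-6.03 aged, -5.47 young). Serpinb11 stood at 3.14 in aged and 4.28 in young HFSCs and at 0 and -1.69 in aged and young total epidermis, and was not well above background in IFE (-4.65 aged, -5.38 young). In each of the 7 genes both unplucked HFSC arrays of aged and young mice were higher than all 4 epidermal arrays, as the plot of levels by array shows. The share of all genes with this pattern was not counted, so it is only described. It does not extend to Scrg1 in unplucked cKO (-4.12) and control (-6.32) HFSCs, where it was not well above background.

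**Figure D1:**
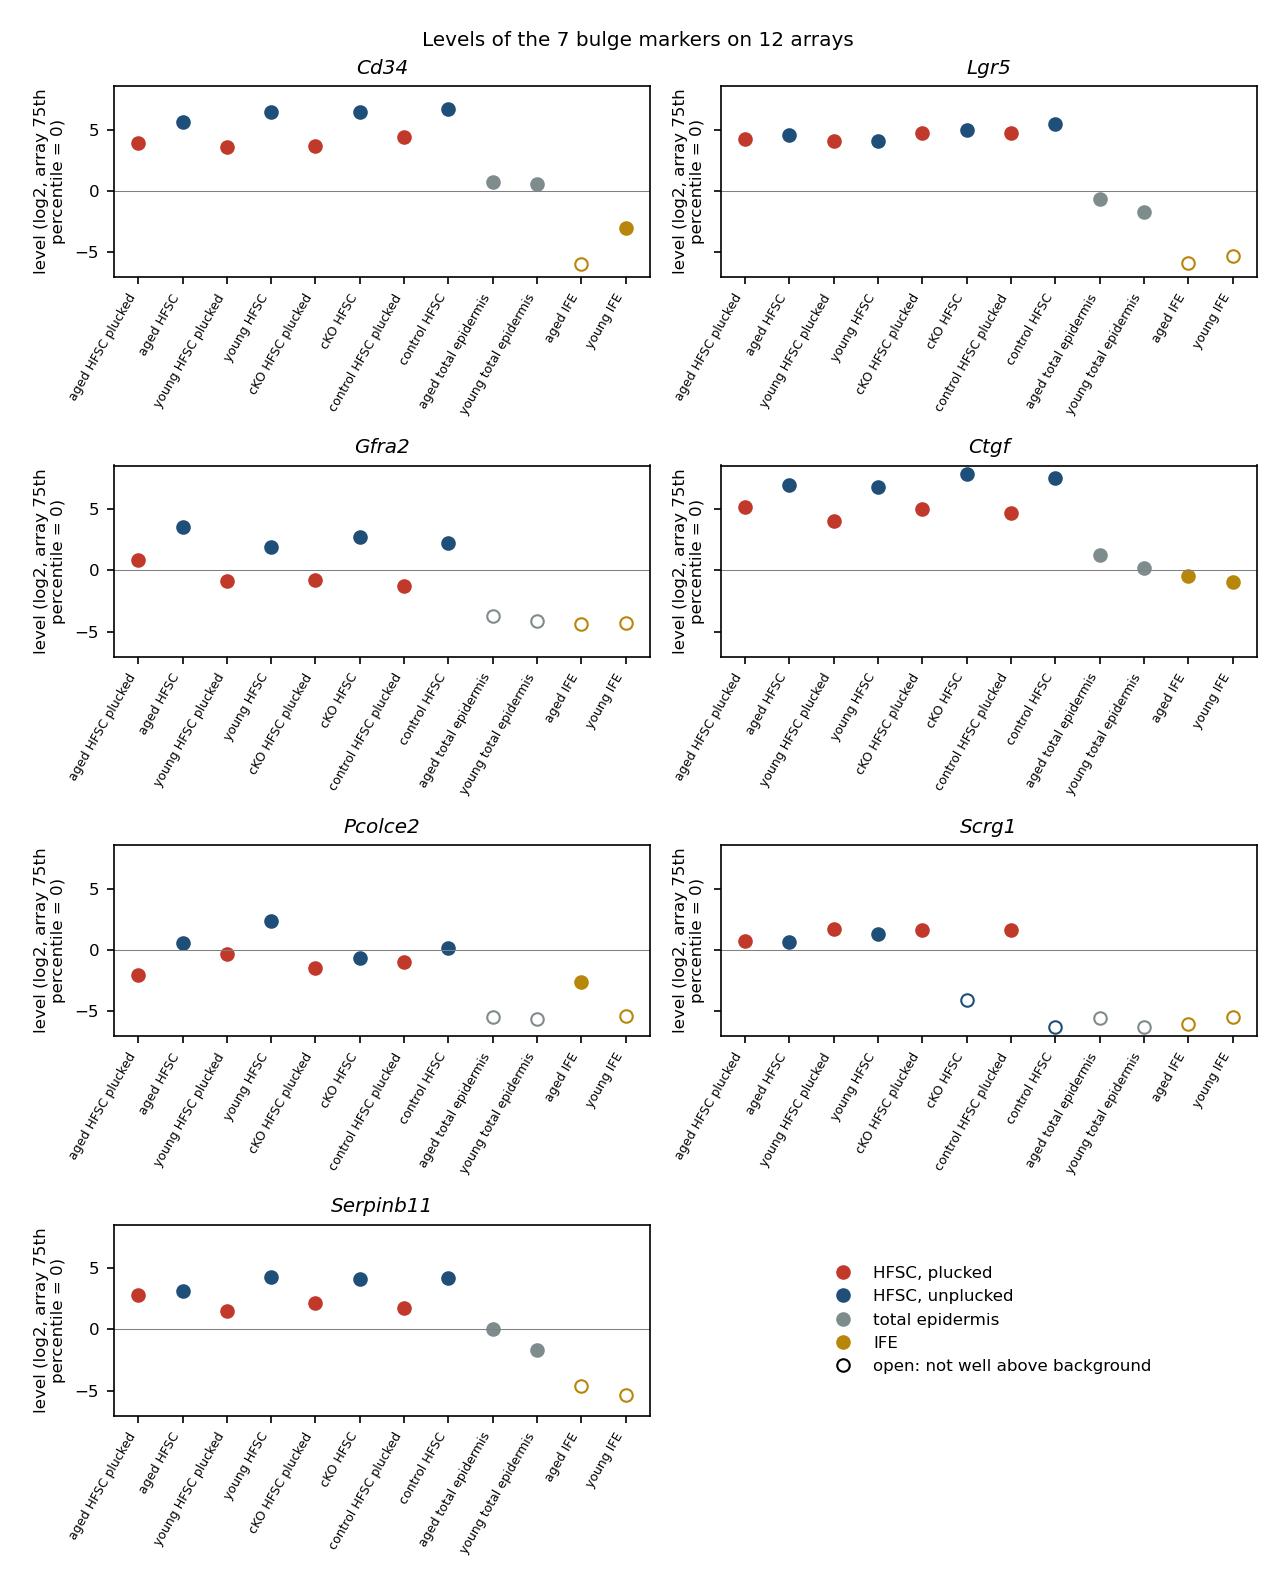
Level of each gene on each of the 12 arrays (y axis, log2 of the processed intensity with the array's 75th percentile at 0). Each point is 1 array, coloured by population and plucking, and open points are not well above background; Scrg1 is open in unplucked cKO and control HFSCs, at -4.12 and -6.32, and filled in the other 6 HFSC arrays.

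The difference between HFSCs and the epidermal populations was tested in limma over the 6 unplucked aged and young arrays, with age as a term (2 residual degrees of freedom, Benjamini-Hochberg adjusted p under 0.05 over all 23962 genes tested). Cd34 served to sort the HFSCs, so its test supports nothing here. Gfra2 and Scrg1 were well above background only on the 2 HFSC arrays of this fit and entered the test through the group where they are high, so their p-values are not given. Pcolce2, well above background on these 2 arrays and aged IFE, also met the filter only through the HFSC arrays, so no call is counted for it. The other 3 genes, Lgr5, Ctgf and Serpinb11, were called higher in HFSCs than in IFE, beside 2.64% of all genes tested. All 3 were also called higher than in total epidermis, beside 2.02%. The calls against total epidermis depend on single arrays. They were lost, for these genes and all others, without the young HFSC, the young total epidermis or the aged total epidermis array. With an array left out, log2 differences from total epidermis were 5.01 to 6.1 for Lgr5, 5.84 to 6.57 for Ctgf and 3.38 to 5.73 for Serpinb11. Those from IFE were 9.26 to 10.64, 7.29 to 7.94 and 7.56 to 9.9.

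Lgr5 was higher than in IFE by 9.95 ± 0.47 (log2 difference ± SE, adjusted p = 0.00938), which is at least 285-fold given that both IFE arrays held only a bound. A bound takes the dim array at the lowest signal it could have measured as well above background, and holds for this scaling. With normexp background correction and quantile scaling, the Lgr5 difference from IFE was 6.10. Ctgf was 196-fold higher than in IFE (7.62 ± 0.34, adjusted p = 0.00938) and 73.9-fold higher than in total epidermis (6.21 ± 0.34, adjusted p = 0.0195). Both Ctgf folds rest on arrays well above background on each side.

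As a description, Gfra2 was at least 91.8-fold higher than in IFE and at least 99.8-fold higher than in total epidermis, and Scrg1 at least 27.7-fold and at least 39.3-fold higher. With normexp and quantile scaling the log2 differences were smaller, 4.36 and 4.31 for Gfra2 and 2.99 and 2.96 for Scrg1. Serpinb11 was at least 184-fold higher than in IFE (adjusted p = 0.0123) and 23.5-fold higher than in total epidermis (4.55 ± 0.72, adjusted p = 0.0485). Its call against total epidermis did not hold under array median scaling (adjusted p = 0.0521) or without a filter on dim genes (0.0759). Lgr5 was 47.2-fold higher than in total epidermis (5.56 ± 0.47, adjusted p = 0.0205).

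Pcolce2, for which no call is counted, was at 5.44 ± 1.10 against IFE, with log2 differences of 3.15 in the aged and 7.73 in the young pair. The IFE array that held it well above background was the aged one. Against total epidermis Pcolce2 was at least 54.8-fold higher, given as a description. The sorting marker Cd34 was at least 751-fold higher than in IFE and 41.7-fold higher than in total epidermis (5.38 ± 0.79), and in a fit over probes its second probe gave 6.24 ± 0.51 against total epidermis. The second probe of Lgr5 was not well above background on the 4 epidermal arrays, and gave at least 2.97-fold against IFE and at least 4.22-fold against total epidermis.

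**Figure D2:**
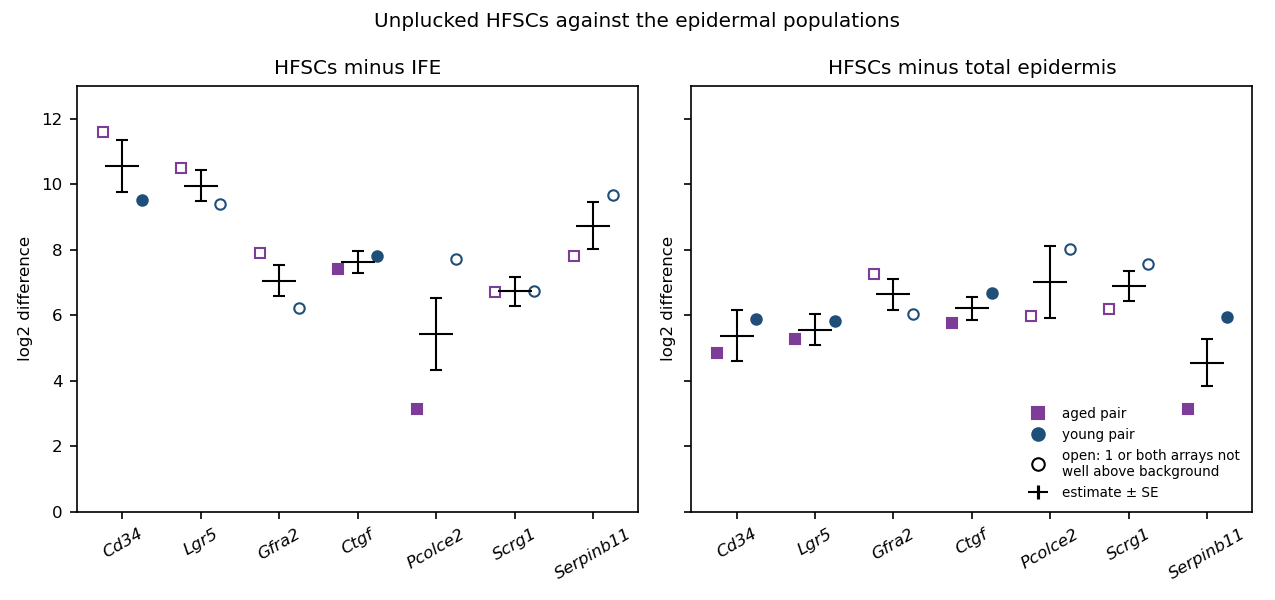
Log2 difference of unplucked HFSCs minus IFE (left) and minus total epidermis (right) for each gene. Symbols are the aged and young pairs of arrays, open where an array of the pair was not well above background, and bars give the limma estimate ± SE over 6 arrays; all estimates lie above 0, those with open symbols resting in part on signals not well above background, from 5.44 to 10.56 against IFE and from 4.55 to 7.01 against total epidermis.

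Between total epidermis and IFE none of the 7 genes passed the threshold (0 of 7, and 0% of all genes), and 4 had an unadjusted p under 0.05 in limma, as had 977 of all genes. Total epidermis over IFE was at least 6.04-fold for Lgr5 (adjusted p = 0.156), at least 18-fold for Cd34 (0.309) and at least 7.82-fold for Serpinb11 (0.390), which were not well above background in 1 or both IFE arrays, and 2.65-fold for Ctgf (1.41 ± 0.34, 0.705). These 4 were above background in both total epidermis arrays, and the other 3 were not in either.

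Of 20 other surface and secreted bulge genes, 15 were called higher in HFSCs than in IFE and 13 than in total epidermis, beside 2.64% and 2.02% of all genes tested. Both counts include Igfbp5, Wif1 and Tnc, which, like Gfra2, entered the test only through the HFSC arrays. Cd200, a surface glycoprotein of bulge cells, Igfbp5, a binding protein of insulin-like growth factors, and the growth factor Fgf18 had the highest measured differences from IFE. None of the 3 was well above background in IFE, so that only bounds are given, at least 112-fold for Cd200, 52.4-fold for Igfbp5 and 59-fold for Fgf18. Timp3, Lrig1 and Epha4 had the lowest (-0.27 ± 0.37, -0.24 ± 0.34 and 0.01 ± 0.28) and did not pass the test. Of 10 bulge transcription factors, 8 were called higher than in IFE and 5 than in total epidermis, beside 2.64% and 2.02% of all genes tested. Both counts include Runx1, which met the filter only through the HFSC arrays. The highest measured differences from IFE were those of Tbx1 (at least 1010-fold), Lhx2 (317-fold, measured on both sides) and Gli1 (at least 40.4-fold). Tcf7l2 (1.56 ± 0.27, adjusted p = 0.0519), Vdr (2.97 ± 0.34, 0.0225) and Nfatc1 (3.38 ± 0.28, 0.0126) had the lowest differences from IFE, of which Tcf7l2 did not pass.

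Relatives of the 7 genes went in both directions. Gfra1, the co-receptor for GDNF, was at least 64.5-fold higher in HFSCs than in IFE and at least 71.2-fold higher than in total epidermis, where it was not well above background. Its ligand Gdnf was lower in HFSCs, where it was not well above background, by at least 1.84-fold against IFE. Gdnf entered the test only through epidermal arrays, so its p-value is not given. Nrtn, which encodes the GFRA2 ligand neurturin, was at 1.16 ± 0.29 against IFE without passing the test (adjusted p = 0.112), and the signalling receptor Ret was well above background on only 2 of 12 arrays. Lgr4, another R-spondin receptor, was higher (2.86 ± 0.27 against IFE, 2.57 ± 0.27 against total epidermis, adjusted p = 0.0157 and 0.0262), and Lgr6 was not (0.04 ± 0.27, adjusted p = 0.954).

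Rspo3, an R-spondin, was lower in HFSCs than in IFE by at least 7.72-fold and than in total epidermis by at least 4.21-fold. It was well above background on the 4 epidermal arrays and no HFSC array. Adamts14, a procollagen N-proteinase, was lower by the same test (-4.52 ± 0.27 and -3.96 ± 0.27). Of 9 clade B serpins tested beside Serpinb11, Serpinb2 (-3.47 ± 0.36 against IFE) and Serpinb7 (-2.84 ± 0.45) were lower in HFSCs and none was higher. The only tested relative of Cd34, Podxl2, was at 3.28 ± 0.72 against IFE (adjusted p = 0.0896), and the CCN gene Ccn1 at 0.40 ± 0.34 (0.589). Ccn6, at -1.38 ± 0.54, entered the test only through epidermal arrays, so its p-value is not given. Bst1, not well above background in IFE, was at least 4.85-fold higher in HFSCs than in IFE. It met the filter only through the HFSC arrays, so its p-value is not given either.

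Markers of other cell types moved with some of these differences. The summed level of 6 fibroblast markers (linear, in units of the array's 75th percentile) was 4.27 to 9.17 in unplucked HFSCs, against 0.414 to 0.585 in total epidermis and 0.386 to 0.5 in IFE. Of the collagen I chains, Col1a2 was higher in HFSCs than in IFE (4.69 ± 0.38) and total epidermis (4.69 ± 0.38) and Col1a1 at least 2.96-fold and 4.21-fold higher, Lum and Pdgfra were well above background on none of the 12 arrays, Dcn on 3 and Col3a1 on 5. Melanocyte markers summed to 3.98 to 6.5 in unplucked HFSCs, 1.94 to 3.07 in total epidermis and 1.88 to 3.08 in IFE. Of these, Mitf was higher in HFSCs than in IFE (3.51 ± 0.27) and Pmel lower (-2.62 ± 0.33). Immune cell markers had lower sums in unplucked HFSCs (1.41 to 2.12) than in total epidermis (8.72 to 18.2) and IFE (2.51 to 2.74). So had Schwann cell markers (20.6 to 33.8, against 44 to 46.2 and 46.1 to 47.3), while endothelial marker sums overlapped. The part of these transcripts in the differences of the 7 genes was not tested. In such bulk samples fewer cells of a type and less RNA per cell cannot be told apart.

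After plucking, 2 of the 7 genes fell past the threshold, Gfra2 and Ctgf, where 0.106% of 25428 tested genes were lower in plucked HFSCs. The 4 pairs were tested in limma over the 8 HFSC arrays with mouse type and plucking as terms (3 residual degrees of freedom). Gfra2 stood at 0.82 (aged), -0.85 (young), -0.80 (cKO) and -1.29 (control) in plucked HFSCs, against 3.51 (aged), 1.91 (young), 2.71 (cKO) and 2.22 (control) in unplucked HFSCs. No plucked array overlapped the unplucked ones, and the fall was 8.68-fold (-3.12 ± 0.28, adjusted p = 0.0450). How many of all genes showed no overlap was not counted, so overlap is only described, here and for the genes below. Among the tested genes, 0.26% had a lower estimate.

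Ctgf stood at 5.16 (aged), 4.01 (young), 5.03 (cKO) and 4.70 (control) in plucked HFSCs, against 6.99 (aged), 6.84 (young), 7.85 (cKO) and 7.53 (control) in unplucked HFSCs. The groups did not overlap, and the fall was 5.97-fold (-2.58 ± 0.29, adjusted p = 0.0485). Both calls lie close to the threshold: leaving out any array or any pair gave 0 called genes among the 7 and 0 among all genes, with adjusted p of 0.104 to 0.215 for Gfra2 and 0.130 to 0.215 for Ctgf, and estimates of -3.26 to -2.98 and -2.83 to -2.49. Within slide 1 (aged and young) the estimates were -2.72 and -2.34, and within slide 2 (cKO and control) -3.51 and -2.82, with 0 of the 7 and 0 of all genes called in either.

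Cd34 stood at 3.93 (aged), 3.62 (young), 3.68 (cKO) and 4.39 (control) in plucked HFSCs, against 5.62 (aged), 6.46 (young), 6.47 (cKO) and 6.69 (control) in unplucked HFSCs. The groups again did not overlap, but the difference just missed the threshold (-2.40 ± 0.30, adjusted p = 0.0558). Its second probe gave -2.88 ± 0.41. All 8 populations were sorted for high CD34 protein, so the difference is one of transcript among cells of the same gate by label.

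Pcolce2 and Serpinb11 had negative estimates with more spread between pairs. Pcolce2 stood at -2.01 (aged), -0.30 (young), -1.45 (cKO) and -1.02 (control) in plucked HFSCs, against 0.56 (aged), 2.36 (young), -0.67 (cKO) and 0.14 (control) in unplucked HFSCs, a difference of -1.79 ± 0.42 (adjusted p = 0.137). The groups overlapped, because young plucked cells were above unplucked cKO cells. Within pairs the differences were larger on slide 1 (-2.57 aged, -2.65 young) than on slide 2 (-0.78 cKO, -1.16 control).

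Serpinb11 stood at 2.84 (aged), 1.49 (young), 2.14 (cKO) and 1.79 (control) in plucked HFSCs, against 3.14 (aged), 4.28 (young), 4.09 (cKO) and 4.19 (control) in unplucked HFSCs, a difference of -1.85 ± 0.47 (adjusted p = 0.153). The groups did not overlap, but the aged pair differed by -0.30, against -2.79 in the young, -1.94 in the cKO and -2.39 in the control pair.

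Lgr5 was the gene with the smallest difference after plucking. It stood at 4.22 (aged), 4.10 (young), 4.71 (cKO) and 4.73 (control) in plucked HFSCs, against 4.60 (aged), 4.09 (young), 4.97 (cKO) and 5.43 (control) in unplucked HFSCs. The groups overlapped and the difference was -0.33 ± 0.25 (adjusted p = 0.526). In the young pair the difference was 0.01, and its dim second probe gave 0.13 ± 0.33.

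Scrg1 alone among the 7 had an estimate above 0. It stood at 0.72 (aged), 1.72 (young), 1.61 (cKO) and 1.66 (control) in plucked HFSCs, against 0.69 (aged) and 1.27 (young) in unplucked HFSCs, while it was not well above background in unplucked cKO (-4.12) and control (-6.32) HFSCs. The difference over all 4 pairs, 3.55 ± 1.5, did not pass the test (adjusted p = 0.309). It was 0.24 within slide 1, 6.85 within slide 2 and 0.24 without the unplucked cKO and control arrays. In the cKO and control pairs Scrg1 was at least 53.6-fold higher in plucked cells, as a mean of 2 pairs with no test of its own.

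Other genes were not well above background on those 2 arrays either. The unplucked cKO array had the lowest share of spots well above background of the 12 arrays (49.71%), and the unplucked control array had 59.97%. Of 18687 genes well above background on the other 6 HFSC arrays, 281 (1.5%) were not so on the unplucked cKO and control arrays. The same count for the unplucked aged and young arrays was 46 of 16940 (0.272%). The 2 arrays on which Scrg1 was not well above background are the ones with the lowest correlation to the rest, and the part of this in the Scrg1 values was not tested.

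**Figure D3:**
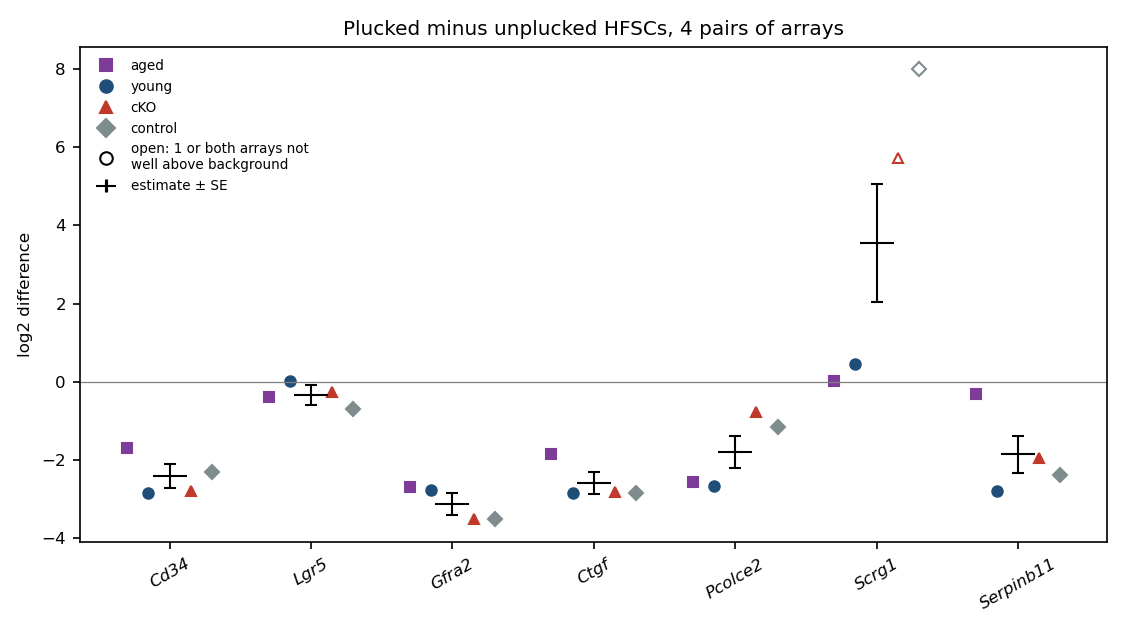
Log2 difference of plucked minus unplucked HFSCs for each gene. Symbols are the aged, young, cKO and control pairs of arrays, open where an array of the pair was not well above background, and bars give the limma estimate ± SE over 8 arrays; Cd34, Gfra2 and Ctgf lie below -1 in all 4 pairs, Lgr5 near 0, and Scrg1 at 0.03 and 0.45 in 2 pairs and at 5.73 and 7.98 in the other two.

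Counted by pairs without a test, 5 of the 7 genes were lower after plucking in 4 of 4 pairs, beside 15.3% of all genes tested. At least 2-fold lower in 4 of 4 pairs were 3 of 7 (Cd34, Gfra2 and Ctgf), beside 1.04%. The median of the 7 estimates was -1.85, and that of all genes -0.06. Of the 20 other surface and secreted bulge genes, 1 fell past the threshold (Aspn, a small proteoglycan of the matrix, -4.08 ± 0.39, adjusted p = 0.0450) and 12 had estimates below 0, with a median of -1.17. Fgf18 (-4.38 ± 0.99, adjusted p = 0.128) and Ltbp2, a latent TGF-beta binding protein (-3.09 ± 0.36, 0.0513), had the other lowest estimates, and Timp3 (2.37 ± 0.41, 0.0876), Tnc (1.78 ± 0.95, 0.397) and Lrig1 (1.49 ± 0.23, 0.0736) the highest.

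The 10 bulge transcription factors had a median of 0.02 with 0 called. In limma, Foxc1 (-1.38 ± 0.43), Nfatc1 (-0.37 ± 0.22) and Lhx2 (-0.17 ± 0.22) had the lowest estimates and Gli1 (1.67 ± 0.30), Tcf7l1 (1.52 ± 1.04) and Runx1 (0.93 ± 0.34) the highest, of which Foxc1, Gli1 and Runx1 had an unadjusted p under 0.05, as had 4464 of all 25428 genes. The test of a difference between the lists was not made, so the medians stand side by side as descriptions.

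**Figure D4:**
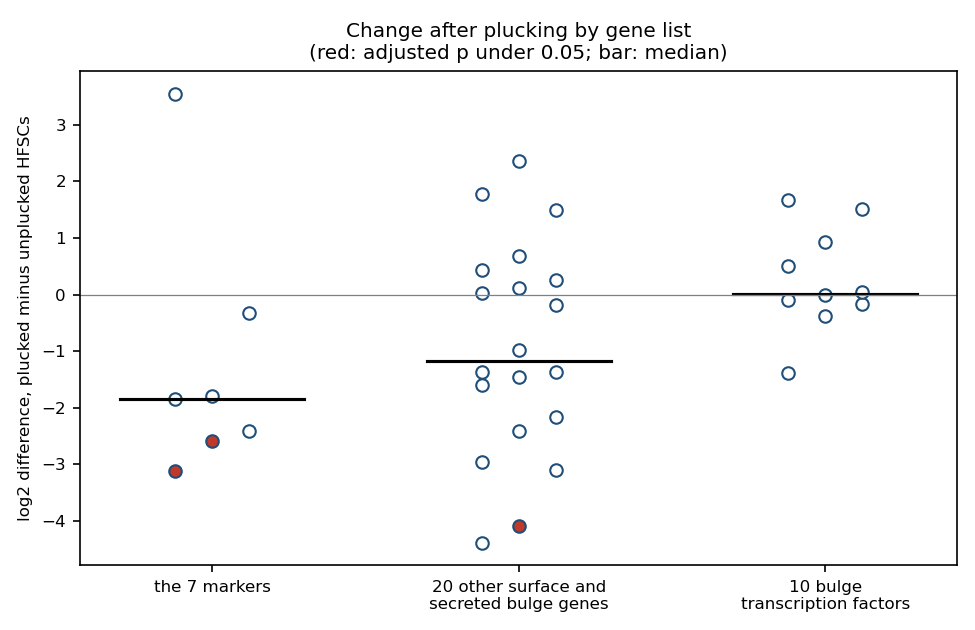
Log2 difference of plucked minus unplucked HFSCs for the 7 markers, 20 other surface and secreted bulge genes and 10 bulge transcription factors. Each point is the limma estimate of 1 gene over 8 arrays, red points passed the threshold, and bars mark the medians of -1.85, -1.17 and 0.02.

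Relatives gave the following values after plucking, none past the threshold. Ccn1, a CCN family member and YAP target like Ctgf, was at -2.53 ± 0.48 (adjusted p = 0.101), with 1.48 in plucked cKO against 4.96 in unplucked cKO cells and 1.66 in plucked young against 3.02 in unplucked young cells. Of 6 YAP target genes tested beside Ctgf, 0 passed and all had estimates below 0 (-2.53 to -0.15), of which 4 had an unadjusted p under 0.05, read against the 4464 of 25428 genes given above. Gfra1 was at -2.21 ± 0.56 (0.155), Nrtn at -1.14 ± 0.27 (0.135), Lgr4 at 0.56 ± 0.33 (0.436), Lgr6 at 0.64 ± 0.26 (0.294), and Serpinb10 at -2.22 ± 0.40 (0.0923).

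Cell cycle genes moved with plucking: Bub1, Mki67 and Tpx2 rose (5.46 ± 0.57, 3.81 ± 0.40 and 5.78 ± 0.62, each with adjusted p = 0.0450), and the summed level of 6 such genes was 30.6 to 61.6 in plucked against 1.26 to 6.54 in unplucked HFSCs. The summed fibroblast markers were 2.07 to 2.47 in plucked against 4.27 to 9.17 in unplucked HFSCs, a sum made up largely of Col1a2 (-1.90 ± 0.29, adjusted p = 0.0712). The other 3 tested were Dcn at 1.43 ± 0.36 (0.152), Col1a1 at 0.38 ± 0.63 and Col3a1 at -0.08 ± 0.29, and the list's median was 0.15. Melanocyte markers summed to 1.54 to 2.43 in plucked against 3.98 to 6.5 in unplucked HFSCs, with Mitf, a transcription factor of that lineage, lower (-2.84 ± 0.23, adjusted p = 0.0443). The other 4 tested did not pass, with Dct at 1.59 ± 0.74, Mlana at 0.95 ± 0.56, Pmel at 0.40 ± 0.37 and Tyr at -0.35 ± 0.24, and the list's median was 0.40. The part of these other transcripts in the differences of the 7 genes was not tested.

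Between aged and young HFSCs, 0 of the 7 genes passed the threshold (0% of 25428 genes), with 2 of the 7 and 1231 of all genes at an unadjusted p under 0.05 in limma. These 2 were Gfra2, with an estimate of 1.64 ± 0.40 (adjusted p = 0.932), and Pcolce2, with -1.76 ± 0.60 (0.932). The pairs gave nearly the same value for each: Gfra2 differed by 1.67 in plucked and 1.60 in unplucked cells, and Pcolce2 by -1.71 and -1.80. Their levels are those given above for aged and young HFSCs.

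Ctgf differed by 1.15 in plucked and 0.15 in unplucked cells between aged and young mice (0.65 ± 0.41, adjusted p = 0.932), and Lgr5 by 0.12 and 0.51 (0.31 ± 0.35, 0.939). Cd34 and Serpinb11 went opposite ways by plucking. For Cd34, aged minus young was 0.30 in plucked and -0.84 in unplucked cells, and for Serpinb11 1.35 and -1.14, with estimates of -0.27 ± 0.42 and 0.11 ± 0.66. Scrg1 was at -1 and -0.59 (-0.79 ± 2.12, adjusted p = 0.981).

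In total epidermis and IFE, 4 of the 7 genes were bright enough to be tested between ages (1 residual degree of freedom), with 0 called (0% of 22827 genes) and 2 at an unadjusted p under 0.05 in limma, as had 1485 of all genes. These were Serpinb11 (1.21 ± 0.34, adjusted p = 0.706) and Ctgf (0.81 ± 0.28, 0.762). Ctgf differed by 1.08 in total epidermis and 0.54 in IFE. Cd34 was at -1.37 ± 0.81 and Lgr5 at 0.22 ± 0.47.

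Between cKO and control HFSCs, 0 of the 7 genes passed the threshold (0% of all genes), and 0 of the 7 had an unadjusted p under 0.05 in limma, against 1645 of all genes. For Gfra2, cKO minus control was 0.50 in plucked and 0.49 in unplucked HFSCs (0.49 ± 0.40, adjusted p = 0.871), and for Ctgf 0.33 and 0.32 (0.33 ± 0.41, 0.939). Pcolce2 differed by -0.43 and -0.80 (-0.61 ± 0.60, 0.914), Cd34 by -0.70 and -0.22 (-0.46 ± 0.42, 0.898) and Lgr5 by -0.03 and -0.46 (-0.25 ± 0.35, 0.951). Serpinb11 was at 0.13 ± 0.66 and Scrg1 at 1.07 ± 2.12, of which the unplucked pair had no array well above background.

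**Figure D5:**
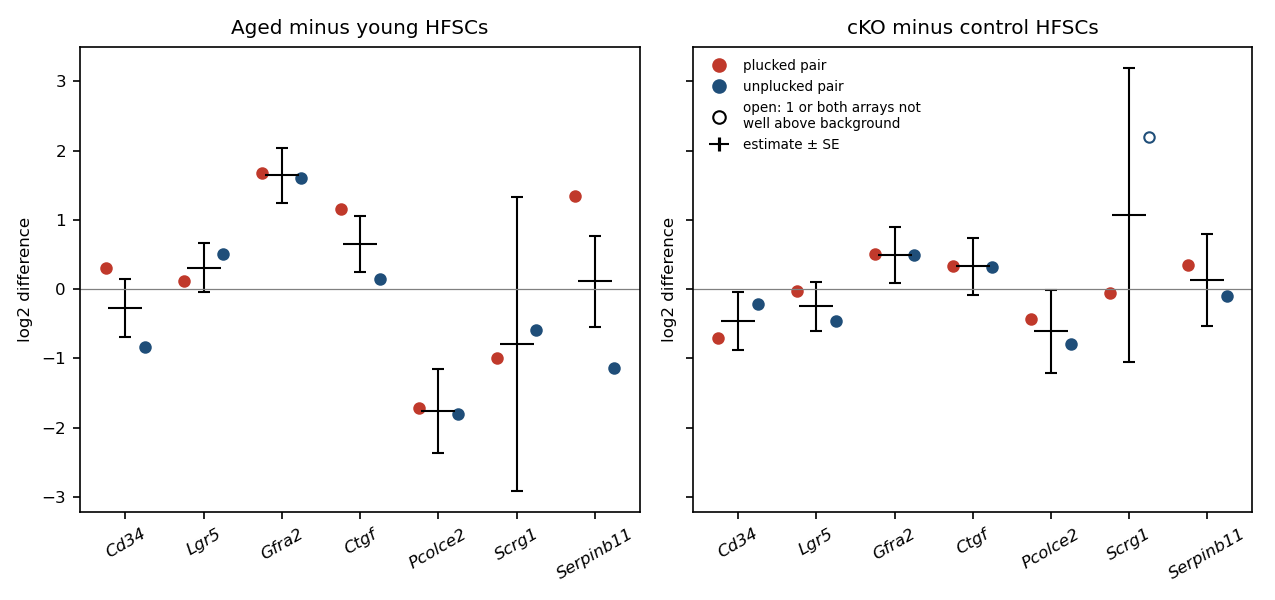
Log2 difference of aged minus young (left) and cKO minus control (right) HFSCs for each gene. Points are the plucked and unplucked pairs, open where an array was not well above background, and bars give the limma estimate ± SE over 8 arrays; Gfra2 lies at 1.67 and 1.60 and Pcolce2 at -1.71 and -1.80 between ages, and none of the estimates passed the threshold.

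Control against young HFSCs, which differ by tamoxifen, by age (12 against 8 weeks) and by slide, gave 0 called genes of 7 (0% of all genes), with 1 of 7 and 2222 of all genes at an unadjusted p under 0.05 in limma. Lgr5 was the 1 gene (0.99 ± 0.35, adjusted p = 0.570), at 0.63 in plucked and 1.34 in unplucked cells. Pcolce2 was at -1.47 ± 0.60 (0.570) and Scrg1 at -3.83 ± 2.12 (0.607). The Ctgf, Cd34, Serpinb11 and Gfra2 estimates were 0.69 ± 0.41, 0.50 ± 0.42, 0.11 ± 0.66 and -0.07 ± 0.40.

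Whether the change after plucking differed between aged or cKO cells and their own young or control cells was tested as an interaction over the 8 HFSC arrays. No gene passed (0 of 7, and 0% of all genes), and 0 of the 7 had an unadjusted p under 0.05, against 1146 of all genes in limma. Serpinb11 had the estimate farthest from 0, 1.47 ± 0.77 (adjusted p = 0.999) and an aged pair at -0.30, against -2.79 in the young pair.

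The genes whose levels ran most like each of the 7 over the 12 arrays were looked up among 22351 genes well above background on at least 6 arrays. As the arrays fall into HFSC and epidermal populations, these correlations mostly describe that split, and they are given without a test. Nearest to Cd34 were Calml3 (r = 0.988), Fgf1 (0.985) and Cd200 (0.985), with r of 0.915, 0.989 and 0.879 over the 8 HFSC arrays alone. Nearest to Lgr5 were 3 bulge transcription factors, Tbx1 (0.995), Lhx2 (0.993) and Nfatc1 (0.985), with r of 0.7, 0.484 and 0.851 over the HFSC arrays alone.

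Nearest to Ctgf were A530047J11Rik (0.989), the secreted glycoprotein Dkk3 (0.986) and the kinase Camk4 (0.983). Nearest to Gfra2 were the serpin Serpina3n (0.977), Pdzrn4 (0.973) and Col1a2 (0.971), and nearest to Pcolce2 S100a6 (0.965), Galnt18 (0.936) and Ftl1 (0.934). Serpinb11 ran nearest to the BMP antagonist Grem1 (0.989), the collagen chain Col8a2 (0.973) and the unnamed probe A_55_P2092286 (0.973). Among the nearest to Scrg1 were Procr, the endothelial protein C receptor (0.969), and Tceal5 (0.961), both with low values in the unplucked cKO and control cells as well. Procr stood at -5.12 and -4.53 in those arrays, against -1.37 and -0.99 in unplucked aged and young cells.

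Among the 7 themselves, over the 8 HFSC arrays, Ctgf ran with Cd34 (r = 0.94), Serpinb11 (0.93) and Gfra2 (0.91), and Cd34 with Serpinb11 (0.92). Lgr5 ran less closely with these 4 (0.28 to 0.54), and Scrg1 had r of -0.74 to -0.55 with them, values that include the 2 arrays where it was not well above background. Pcolce2 ran with the 4 at r = 0.48 to 0.66. These values share the same arrays and the plucking contrast.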

How the data were processed

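The deposited scanner files give spot intensity on a linear scale from 12 1-colour arrays, extracted with Agilent Feature Extraction 10.7.3.1 and protocol GE1_107_Sep09 per the file headers. This intensity was already corrected by the scanner software. Per the labels' protocols, nanogram amounts of RNA were amplified and labelled with Cy3. The deposited values of the authors also include a sheet of log2 values for 55821 probes. How it was made is not given in the sources used here; its columns matched the log2 processed intensity minus the 75th percentile and the probe's median (r of at least 0.9999; column medians -0.20 to 0.17), which settles its scale and direction, and it served as an alternative. 

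Here, outlier spots (129 to 269 per array) and controls were left out, no spot was saturated, spots of a probe were averaged on the log2 scale, and each array was centred on its 75th percentile. Of 55681 probes, 28026 were named by RefSeq accession and 27655 by the array files; 11198 of 34763 gene names had more than 1 probe. A gene entered a fit where 2 or more of its arrays were well above background, and was tested with limma 3.58.1 in R 4.3.3 (lmFit, eBayes, Benjamini-Hochberg adjusted p under 0.05), which was tested on simulated data; figures used matplotlib 3.10.9 in Python 3.11.15. With 1 array per group, the spread came from additive fits over matched pairs, and array number limits the precision. Single pairs have no test. The members and lists were chosen with earlier results of these data known. Eligible for naming were all 7 genes, the 3 genes closest to each by correlation, the 3 highest and 3 lowest of 2 bulge lists, genes of lists past the threshold and detected relatives; examples of these are given, and 1 gene close to a marker by correlation is not reported here. Alternatives covered scaling, background correction, dim-gene filters, probe choice, outliers, the variance prior, the authors' table, slides and leaving out arrays or pairs.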

Additional observations from a re-analysis of the deposited data

Results flagged for a closer look

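Measured values of Pcolce2 for aged minus young cells had opposite signs by population. They were negative in both HFSC pairs (-1.71 plucked, -1.80 unplucked) and above 0 in total epidermis (0.23) and IFE (2.78), so that the HFSC mean minus the mean of the 2 epidermal populations was -3.26. The difference was not tested. Neither total epidermis array held Pcolce2 well above background, so that no direction can be read there. Aged IFE did and young IFE did not, which gives at least 2.07-fold in aged over young IFE, and the value of -3.26 rests in part on signals not well above background.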

How the results depend on the processing

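Settings changed one at a time left 830 single values in the same direction and on the same side of the threshold, with 57 no longer past it, 9 newly past it and 21 of opposite sign, and of the counts of called genes 139 stayed within 1.5 times and 22 did not. Of the 7 genes, 0 were called after plucking without a filter on dim genes (22 of all genes; adjusted p = 0.0525 for Gfra2 and 0.0579 for Ctgf, limma). The same held within slide 1, within slide 2, and without the unplucked cKO and control arrays, a setting chosen after seeing the data, each with 0 of all genes called. Leaving out an array or pair gave 0 to 0 called after plucking (0 of all genes) and 0 to 7 for HFSCs against total epidermis. Counts against total epidermis in this section include Cd34, Gfra2, Scrg1 and Pcolce2, which were set aside above. Without a filter, 4 of the 7 (327 of all genes) were called against total epidermis, where the main setting called 7. Cd34 (adjusted p = 0.0662), Serpinb11 (0.0759) and Pcolce2 (0.0725) did not pass there in limma. With an intensity trend, 1 of the 7 (Lgr5) passed for total epidermis against IFE, beside 28 of all genes. Cd34 passed after plucking under normexp with quantile scaling (adjusted p = 0.0126), the stricter filter (0.0405), the mean over probes (0.0426) and the trend (0.0118). Signs turned only for values that had passed no test. Median scaling gave -0.14 for Serpinb11 aged minus young, 0 for Serpinb11 cKO minus control and 0.12 for Gfra2 control minus young, and the mean over probes 0.21 for Lgr5 cKO minus control. Without the unplucked cKO and control arrays, Scrg1 was at -0.05 for cKO minus control and 0.04 for control minus young, and Serpinb11 at -0.32 for control minus young. Leaving out arrays, aged minus young ranged over -0.74 to 0.2 for Cd34, -3.14 to 1.55 for Scrg1 and -0.93 to 1.15 for Serpinb11. Cells of cKO minus control ranged over -1.29 to 0.06 for Pcolce2, -1.88 to 4.03 for Scrg1 and -0.23 to 0.48 for Serpinb11, and control minus young over -0.33 to 0.2 for Gfra2 and -0.51 to 0.73 for Serpinb11. The cause was not tested. Signal over background leaves only bounds for Gfra2, Pcolce2, Scrg1, Serpinb11, Lgr5 and Cd34 on some epidermal arrays, and for Scrg1 in unplucked cKO and control HFSCs. A replicate block could not be fitted, as every group holds 1 array with replicate number 1; pairs matched by mouse type or age are terms of the fits.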
